A study of Mus musculus with 34 samples.

Results

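Cd5l, Lpl, Folr2, Cdkn1c, Gdpd3, Cap1, Npl and Ifi202b are 8 genes whose signal differed between IL-10-/- and wild-type bone marrow-derived macrophages under every stimulation tested. They were chosen on measured values: the contrast of IL-10-/- with wild type picked them, so the size of that contrast is described here and not tested. Their probe sets were found by gene symbol, and the 8 genes are among 6070 genes with a tested probe set in the series. Lpl is measured by 2 probe sets and the others by 1 each, so the genes are read from 9 probe sets, and all 9 passed the filter on low signal. For Npl this rested on wild-type arrays, since no knockout array and only the fourth resting array reached the minimum signal. In IL-10-/- macrophages Cd5l, Lpl, Folr2 and Cdkn1c were higher, and Gdpd3, Cap1, Npl and Ifi202b were lower, than in wild type. In IL-6-/- macrophages Cap1 and, less firmly, Npl were lower than in wild type as well, and Gdpd3 was higher. Cd5l, Lpl, Folr2, Cdkn1c and Ifi202b did not pass the test there. The IL-6-/- arrays were not used in the choice, but the wild-type arrays were, so these calls are not independent of it.

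Macrophages were grown from the bone marrow of wild-type, IL-10-/- and IL-6-/- mice for 7 days with CSF-1, the growth factor that drives marrow cells into macrophages, and rested for 1 h. They were then stimulated with bacterial lipopolysaccharide (LPS, 100 ng/ml) in 5 arms: LPS for 45 min, LPS for 180 min, LPS with IL-10 (10 ng/ml) for 45 min or 180 min, and LPS with IL-6 (2 ng/ml) for 45 min. Each genotype and arm holds 2 arrays, except that IL-6-/- with LPS alone holds 1 array at 45 min and 1 at 180 min. That gives 10 wild-type, 10 IL-10-/- and 8 IL-6-/- arrays, and 4 arrays of resting cells bring the 16 groups to 32 arrays. Another 2 arrays could not be placed in a group. The added cytokine is read from the sample titles, because the treatment entry of many of these arrays names LPS alone. The resting cells carry no genotype and their CSF-1 came from L cell conditioned medium, a source that the entries of the stimulated cells do not name. The titles number the arrays as biological replicates, but strain, age, litter and the number of mice are not given, so p-values measure only the spread between these arrays. Each genotype may be a separate mouse line, so the missing gene and any other difference between the lines cannot be told apart in these data. In bulk RNA, fewer cells of a type and less RNA per cell cannot be told apart either.

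Expression was measured on a single-colour oligonucleotide array as MAS5 signal, a linear intensity per probe set in arbitrary units that the authors deposited. Signals ran from 0.2 to 86349.8, and the 2% trimmed mean of each array lay between 500.29 and 500.4, so the arrays share a scale. Arrays of the same stimulated group correlated at 0.932 to 0.96 on the log2 scale and the resting arrays at 0.863 to 0.93. Level differences are on the scale of log2(signal + 50), which understates the change of probe sets near or below a signal of 50. The macrophage identity of the cells was visible in all groups, with a median summed signal over 18 macrophage markers of 290759 in wild type, 306448 in IL-10-/-, 311032 in IL-6-/- and 341006 at rest. The genotypes are given as labelled: the Il10 probe set read 1511.8 to 10596.0 on IL-10-/- arrays and 2412.5 to 4512.1 on wild-type arrays, and the Il6 probe set read 427.5 to 8400.2 on IL-6-/- arrays. Where these probes lie relative to the deleted parts of the genes is not given in the sources used here, so they do not check the labels.

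The genes have separate roles. Cd5l is a secreted scavenger-receptor protein made by tissue macrophages that protects them from apoptosis and is a target of the liver X receptor. Lpl, lipoprotein lipase, releases fatty acids from lipoprotein triglyceride and is made by macrophages as well as by fat and muscle. Folr2 is folate receptor beta, a surface protein of resident-type macrophages. Cdkn1c, or p57, is an imprinted inhibitor of cyclin-dependent kinases. Gdpd3 belongs to the glycerophosphodiester phosphodiesterase family and can make lysophosphatidic acid from lysophospholipids. Cap1 binds actin monomers and helps filaments turn over. Npl splits sialic acid in the cytosol. Ifi202b belongs to the interferon-inducible Ifi200 family, clustered on mouse chromosome 1, whose members bind nucleic acid or regulate transcription, and its level is known to differ among inbred mouse strains. IL-10 is the cytokine with which activated macrophages damp their own response to LPS, and IL-6 is an inflammatory cytokine that signals through STAT3 as IL-10 does.

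The genes do not share a chromosome: Cd5l is on chromosome 3, Lpl on 8, Cap1 on 4, Folr2, Gdpd3 and Cdkn1c on 7, and Npl and Ifi202b on 1, where Il10 also lies. Promoters (250 bases before to 50 after a start, RefSeq, GRCm38.p6) were on hand for Cd5l, Folr2, Gdpd3, Cap1, Ifi202b and Npl, 6 of the 8 genes. Below are those of Cd5l and Folr2, which were higher in IL-10-/-, and of Ifi202b, which was lower and rose most after LPS. Capitals mark matches to the motifs searched on both strands: GAAANNGAA (interferon-stimulated response element core), TTCNNNGAA (STAT site), GAGGAAG (PU.1 core), AGGTCA (nuclear receptor site), the TATAAA box, the CCAAT box and the kappaB consensus. The Cd5l promoter lies at chr3:87357631-87357930 on the plus strand and that of Ifi202b at chr1:173982795-173983094 on the minus strand. Folr2 has more than 1 listed promoter, and the first is printed, at chr7:101857141-101857440 on the minus strand.
Cd5l: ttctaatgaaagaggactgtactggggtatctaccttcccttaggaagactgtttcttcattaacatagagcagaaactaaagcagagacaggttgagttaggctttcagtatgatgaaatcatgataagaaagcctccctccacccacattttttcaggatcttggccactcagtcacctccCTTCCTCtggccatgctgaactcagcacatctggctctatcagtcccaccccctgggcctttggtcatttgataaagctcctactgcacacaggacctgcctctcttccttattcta
Folr2: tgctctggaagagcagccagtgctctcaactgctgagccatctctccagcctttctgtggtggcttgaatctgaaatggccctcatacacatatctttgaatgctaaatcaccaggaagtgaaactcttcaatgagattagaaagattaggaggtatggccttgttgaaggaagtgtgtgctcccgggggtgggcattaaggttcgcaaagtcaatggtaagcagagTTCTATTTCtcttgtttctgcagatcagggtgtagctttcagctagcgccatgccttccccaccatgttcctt
Ifi202b: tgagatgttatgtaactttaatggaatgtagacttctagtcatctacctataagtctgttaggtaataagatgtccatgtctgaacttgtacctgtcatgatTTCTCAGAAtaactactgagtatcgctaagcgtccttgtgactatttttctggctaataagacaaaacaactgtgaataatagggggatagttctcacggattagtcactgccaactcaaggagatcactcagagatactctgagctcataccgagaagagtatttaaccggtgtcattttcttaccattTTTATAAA
The capitals in Cd5l are a GAGGAAG match read on the minus strand, beginning 67 bases before the start, and 13.6% of 32851 promoters of the same length hold that motif. Those in Folr2 are a minus-strand GAAANNGAA match 23 bases before the start, found in 8.56% of promoters. The second Folr2 promoter, at chr7:101845282-101845581 on the minus strand, held none of the motifs and is not printed. In Ifi202b the first match is TTCNNNGAA, 148 bases before the start, a palindrome counted on both strands and found in 8.3% of promoters. The last capitals in Ifi202b are overlapping TATAAA matches on both strands after the start, a motif of 13.6% of promoters. The Cap1 promoter held TTCNNNGAA and CCAAT, the latter found in 37.4% of promoters, and those of Gdpd3 and Npl held none of the motifs. AGGTCA was in 16.3% and the kappaB consensus in 8.46% of all promoters and in none of these 6. Each match is a run of letters, with nothing measured at it here.

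Over all genes, the contrast that chose the members called 290 of 8224 probe sets between IL-10-/- and wild type at an adjusted p under 0.05 (limma, Benjamini-Hochberg), 3.53%. Of these 160 were higher (1.95%) and 130 lower (1.58%). With the mean over the 5 arms, IL-6-/- against wild type called 306 probe sets or 3.72%, of which 146 were higher (1.78%) and 160 lower (1.95%). Among the 9 member probe sets, 3 were called in IL-6-/- against wild type: Gdpd3 higher, and Cap1 and Npl lower. This comparison uses the wild-type arrays that also took part in the choice of members, so these 3 calls are not independent of that choice. Between the knockouts, 374 probe sets or 4.55% were called, with 7 of the 9 member probe sets among them, a count that shares the IL-10-/- arrays with the choice and is not independent of it. The median difference over all probe sets was within 0.02 of 0 in these 3 comparisons.

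Cd5l was more abundant on every IL-10-/- array than on any other stimulated array. On wild-type arrays it read 1274.5 at the lowest, 2691 at the median and 3595.2 at the highest, and on IL-10-/- arrays 4703.5, 8571 and 10092.1. The 8 IL-6-/- arrays read 1326.5, 2071 and 2866.4, within the wild-type range. The IL-10-/- mean was 1.65 ± 0.23 (SE) above wild type on the log2 scale, 3.14-fold, and each of the 5 arms gave between 1.44 and 1.83. IL-6-/- differed from wild type by -0.24 ± 0.25 (limma adjusted p = 0.703) and from IL-10-/- by 1.89 ± 0.25. The gap was present at each time: at 45 min wild-type arrays read 2536.1 to 3595.2 and IL-10-/- arrays 8004.7 to 10092.1, and at 180 min 1274.5 to 1888.2 and 4703.5 to 5780.9.

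Lpl showed the same order on both probe sets. On the brighter probe set the lowest, median and highest signals were 765.7, 2223 and 2512.1 in wild type, 3445.5, 7930 and 8823.5 in IL-10-/- cells, whereas IL-6-/- cells gave 702.9, 1990 and 2740.7. On the dimmer probe set they were 218.2, 267 and 531.0 in wild type, 691.1, 1720 and 2615.3 in IL-10-/- cells, whereas IL-6-/- cells gave 138.8, 475 and 795.9. Every IL-10-/- array was above every wild-type array on both. The mean IL-10-/- difference was 1.93 ± 0.22 on the brighter and 1.96 ± 0.20 on the dimmer probe set, 3.81-fold and 3.89-fold. In IL-6-/- the differences from wild type were -0.16 ± 0.24 and 0.05 ± 0.22, with limma adjusted p of 0.816 and 0.935. At 180 min the dimmer probe set read 138.8 to 171.3 on the 3 IL-6-/- arrays and 218.2 to 268.0 on the 4 wild-type arrays, while at 45 min the ranges overlapped.

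Folr2 and Cdkn1c completed the genes higher in IL-10-/-. For Folr2 the lowest, median and highest signals were 1089.8, 1284 and 1915.9 in wild type, 3276.1, 3820 and 6504.2 in IL-10-/- cells, whereas IL-6-/- cells gave 967.9, 1102 and 1340.2. For Cdkn1c they were 108.8, 189 and 297.5 in wild type, 395.7, 618 and 746.9 in IL-10-/- cells, whereas IL-6-/- cells gave 181.0, 229 and 434.4. No IL-10-/- array overlapped a wild-type array for either gene, whereas for Cdkn1c an IL-6-/- array given LPS with IL-6 read 434.4, above the lowest IL-10-/- array. The mean IL-10-/- difference was 1.62 ± 0.18 for Folr2 (3.08-fold) and 1.37 ± 0.13 for Cdkn1c (2.58-fold). Cdkn1c was the member nearest the 2-fold minimum, with a smallest arm difference of 1.06. Pam, a peptide-amidating enzyme, and Cd72, a surface receptor best known in B cells, lay just outside it, each with a smallest arm difference of 1.0 after rounding. In IL-6-/- Folr2 differed from wild type by -0.20 ± 0.20 (limma adjusted p = 0.686) and Cdkn1c by 0.20 ± 0.14 (0.524). At 180 min the 3 IL-6-/- arrays read 186.4 to 275.6 for Cdkn1c, above the 4 wild-type arrays at 108.8 to 175.0, and at 45 min the ranges overlapped.

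**Figure D1:**
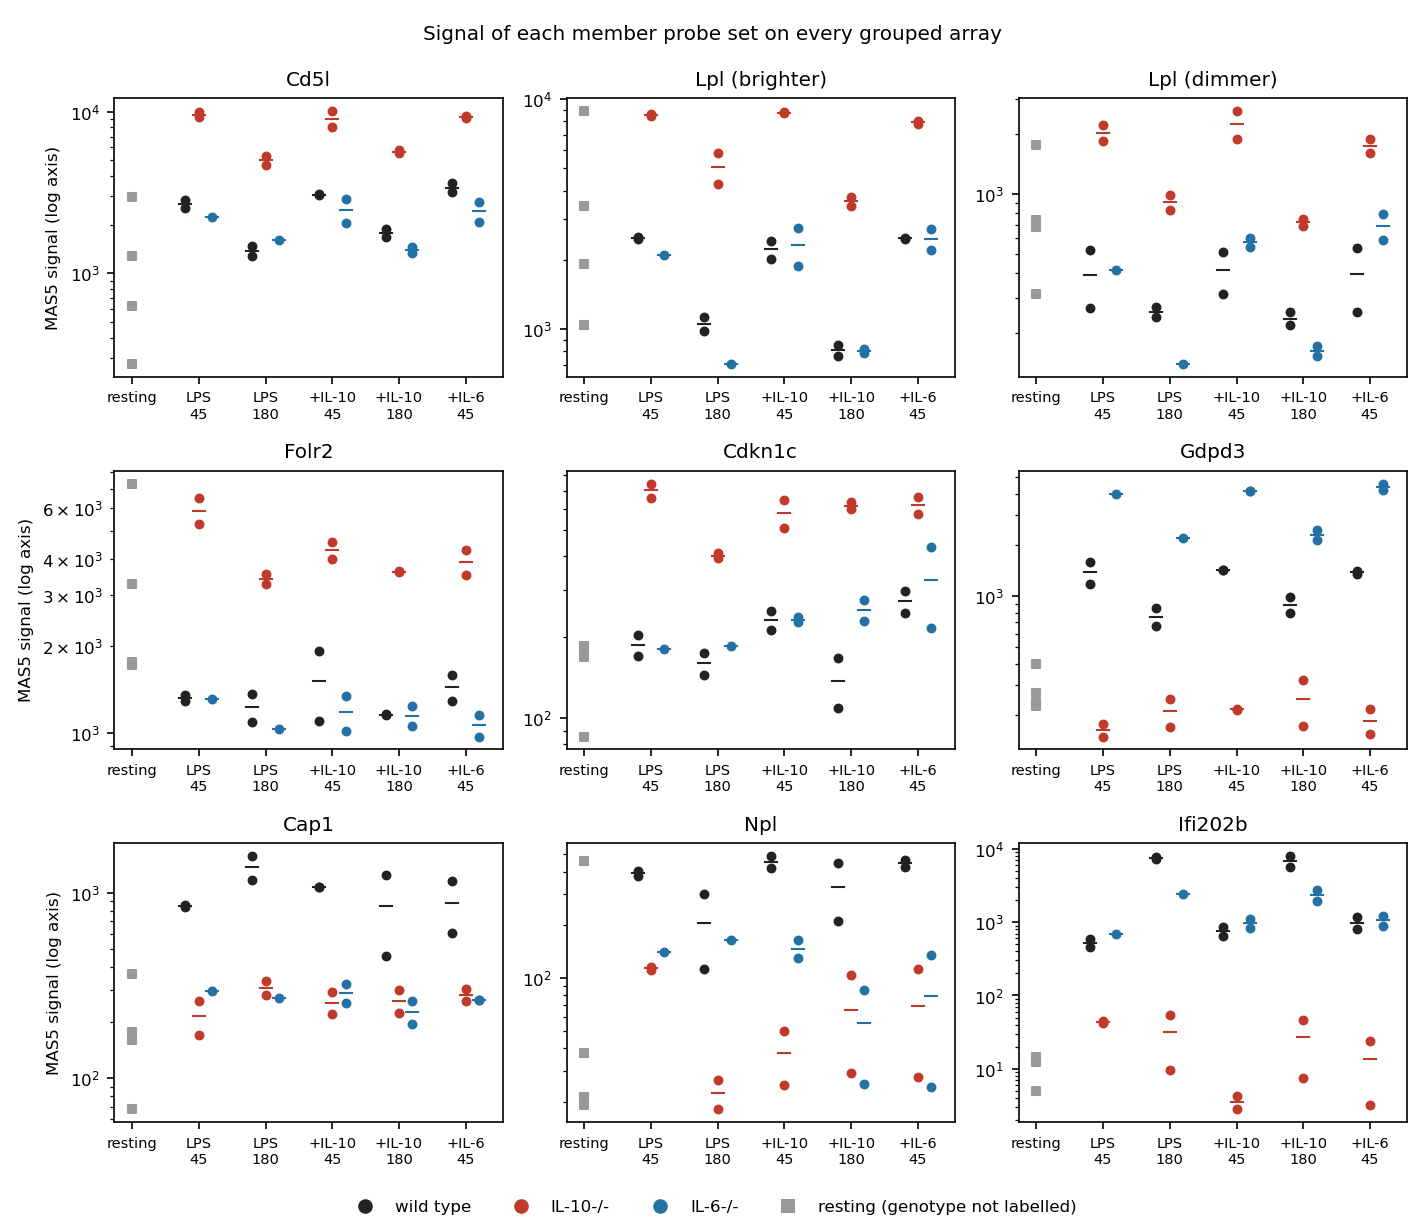
MAS5 signal (log axis) of each of the 9 member probe sets on every grouped array, with the 5 arms and the resting cells along the x axis and a colour for each genotype. Each point is 1 array. Short lines are group means. In every arm IL-10-/- points lie above wild type and IL-6-/- for Cd5l, Lpl, Folr2 and Cdkn1c and below wild type for Gdpd3, Cap1, Npl and Ifi202b.

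Gdpd3 moved in opposite directions in the knockouts. The lowest, median and highest signals were 665.1, 1269 and 1588.1 in wild type, 149.1, 196 and 321.3 in IL-10-/- cells, whereas IL-6-/- cells gave 2122.9, 4075 and 4587.6. The 3 genotypes did not overlap at all: every IL-10-/- array was below every wild-type array, and every IL-6-/- array was above. The IL-10-/- difference from wild type was -2.23 ± 0.11, which is 4.7-fold lower. In IL-6-/- the signal was 1.49 ± 0.12 higher, 2.81-fold (limma adjusted p = 6.3e-08), and the 5 arms gave 1.51, 1.49, 1.51, 1.32 and 1.63. Between the knockouts the gap was 13.2-fold, with IL-10-/- lower by a log2 difference of -3.73 ± 0.12. In LPS alone, wild-type arrays read 1185.0 and 1588.1 at 45 min and 665.1 and 846.7 at 180 min, and the single IL-6-/- arrays read 4003.5 and 2199.8. The ratio of the 180 min to the 45 min mean was 0.545 in wild type and 0.549 in IL-6-/-. The IL-10-/- arrays, at 149.1 and 177.3 and then 171.0 and 249.3, gave 1.29, near the level of the 4 resting arrays, which read 235.5, 269.3, 396.9 and 225.6. Gdpd3 was also the only gene among the 8 whose IL-6-/- arrays lay wholly above wild type at both times. The share of all probe sets with such a separation is not given here. The same holds for Cdkn1c and the dimmer Lpl probe set at 180 min.

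Cap1 was lower in both knockouts by about the same amount. Wild-type arrays read 454.3, 1075 and 1576.4 at the lowest, median and highest, against 170.1, 271 and 332.8 in IL-10-/- cells, whereas IL-6-/- cells gave 195.6, 264 and 323.1. Neither knockout overlapped wild type, and the knockouts overlapped each other. The difference from wild type was -1.69 ± 0.19 in IL-10-/- cells, 3.23-fold, while IL-6-/- cells gave -1.66 ± 0.21 (3.16-fold, limma adjusted p = 1.09e-05). Both differences from wild type use the wild-type arrays that took part in the choice of Cap1. IL-10-/- minus IL-6-/- was -0.03 ± 0.21. The wild-type arrays were themselves uneven in the LPS with IL-10 arm at 180 min, at 1249.4 and 454.3, and with IL-6 at 45 min, at 1152.2 and 605.6.

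Npl was lower in IL-10-/- and, less firmly, in IL-6-/-, with the largest standard errors of the 8 genes. Wild-type arrays read 112.5, 413 and 489.8 at the lowest, median and highest, IL-10-/- arrays 18.1, 39.6 and 115.8, and IL-6-/- arrays 24.1, 132 and 163.2. The ranges touch across times, since the lowest wild-type array belongs to LPS at 180 min and the highest IL-10-/- array to LPS at 45 min. Within each time every IL-10-/- array was below every wild-type array. No IL-10-/- or IL-6-/- array reached a signal of 200, so Npl passed the filter through wild-type arrays. Its IL-6-/- call is therefore not independent of the filter. The difference from wild type was -1.91 ± 0.30 in IL-10-/- cells, 3.75-fold, while IL-6-/- cells gave -1.33 ± 0.33 (2.51-fold, limma adjusted p = 0.0222). The IL-6-/- call is not firm: it was lost with a pseudocount of 10 (0.052), without the second IL-6-/- array of LPS with IL-10 at 180 min (0.0544) and without the second of LPS with IL-6 (0.0545). IL-6-/- arrays were below wild type at 45 min and overlapped it at 180 min, where LPS alone gave 163.1 in IL-6-/- and 298.6 and 112.5 in wild type.

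Ifi202b was close to the floor of the array in IL-10-/- macrophages and abundant in the other genotypes. The 10 IL-10-/- arrays read 2.8, 16.7 and 54.2 at the lowest, median and highest, the wild-type arrays 459.5, 1008 and 7975.6, and the IL-6-/- arrays 690.4, 1173 and 2712.9. The log2 difference of IL-10-/- from wild type was -4.73 ± 0.14, 26.5-fold on the log2(signal + 50) scale, and ran from -2.62 in LPS at 45 min to -6.58 in LPS at 180 min. A signal this low has no firm zero, and the mean difference was -6.03 with a pseudocount of 10 and -3.25 with 200. In wild type the signal climbed with time, from 459.5 and 594.5 at 45 min of LPS to 7379.9 and 7627.9 at 180 min, a ratio of 14.2. In IL-6-/- it went from 690.4 to 2385.1, a ratio of 3.45. The IL-10-/- arrays read 42.4 and 44.4 at 45 min and 9.5 and 54.2 at 180 min, and the resting arrays 12.6, 4.9, 14.5 and 12.5. IL-6-/- arrays overlapped wild type at 45 min and lay below it at 180 min, with 1946.7 to 2712.9 on 3 arrays against 5686.1 to 7975.6 on 4. Over the mean of all arms the IL-6-/- difference of -0.47 ± 0.15 did not pass (limma adjusted p = 0.0844, and 0.00551 with a pseudocount of 200).

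The IL-10-/- offset of each member was also read arm by arm. The choice of genes used the offset of every arm, so the members' arm offsets are described and not tested. Ifi202b had the widest spread, 3.97 between its largest and smallest arm offsets, and the plot of offsets shows the other members by arm. The Gdpd3 offset was -2.74, -2.48 and -2.62 in the 3 arms at 45 min and -1.64 and -1.70 in the 2 at 180 min, a spread of 1.10. Over all probe sets a moderated F test of the offset by arm (limma) called 61, 0.742%, with Ifi202b as the only member among them. Nothing is read here from that count or from the Ifi202b call. The 61 rests on the LPS arrays at 180 min: it was 37 and 30 without either wild-type array and 28 and 29 without either IL-10-/- array of that arm.

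**Figure D2:**
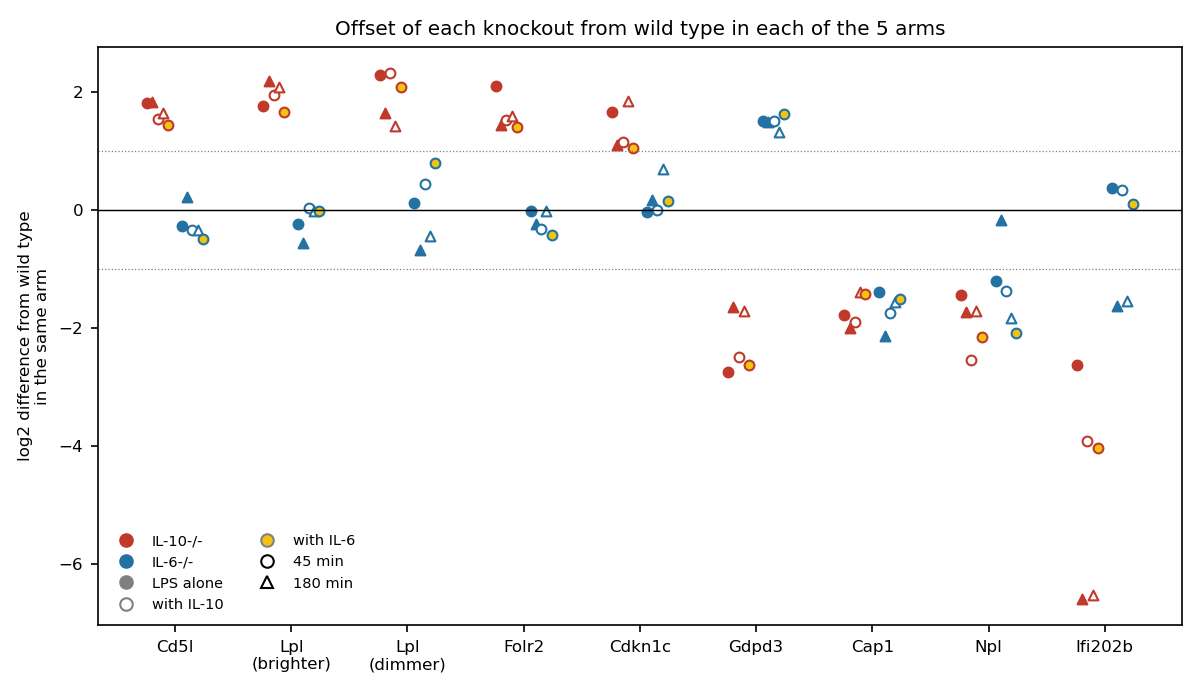
Log2 difference of each knockout from wild type in the same arm, on the log2(signal + 50) scale, for each member probe set. Each marker is the difference of 1 arm, and dotted lines mark 1 and -1. IL-10-/- markers lie beyond the dotted lines for all 9 probe sets, and IL-6-/- markers do so in every arm for Gdpd3, on the opposite side, and for Cap1.

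Time after LPS changed Ifi202b. LPS at 180 against 45 min, averaged over wild type and IL-10-/-, called 2046 probe sets, 24.9%, and 2 of the 9 member probe sets. Ifi202b rose by 1.74 ± 0.21 (limma adjusted p = 9.75e-07), an average over unlike genotypes: the mean signal at 180 min over that at 45 min was 14.2 in wild type and 0.734, near the floor, in IL-10-/-. The brighter Lpl probe set fell by 0.99 ± 0.35 (adjusted p = 0.0399), a call lost without any single array of the 8 (0.0526 to 0.129), without the filter (0.0593) or without the trend (0.0624). The dimmer Lpl probe set gave -0.80 ± 0.31 (0.0649), Cd5l -0.94 ± 0.37 (0.0647) and Npl -1.03 ± 0.48 (0.126), and Cap1 gave 0.54 ± 0.30 (0.209). Some of these passed under other settings: Cd5l with a pseudocount of 200 (0.038), the dimmer Lpl probe set without the first wild-type array at 45 min (0.0371) and Npl without the fourth resting array (0.0222). For Cd5l the mean signal at 180 min over that at 45 min was 0.51 in wild type and 0.521 in IL-10-/-.

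The same step in time was taken in LPS with IL-10, where each genotype has 2 arrays at each time. It called 1252 probe sets in wild type (15.2%), 1065 in IL-10-/- (12.9%) and 1285 in IL-6-/- (15.6%). Leaving out 1 array lowered these counts to as few as 760, 636 and 784. Of the 9 member probe sets, 1 was called in wild type, 1 in IL-10-/- and 4 in IL-6-/-. In wild type it was Ifi202b, from 657.4 and 847.4 to 5686.1 and 7975.6, a rise of 3.09 ± 0.30 (limma adjusted p = 5.74e-08). In IL-6-/- Ifi202b went from 841.7 and 1112.5 to 1946.7 and 2712.9, a rise of 1.21 ± 0.30 (0.00679). That IL-6-/- rise was lost with a pseudocount of 10 (0.12), without the second array at 45 min (0.08) or without the first at 180 min (0.11). In IL-10-/- it gave 0.48 ± 0.30 (0.369), at signals of 2.8 to 47.0. The difference of the rises, IL-6-/- minus wild type, was -1.88 ± 0.43 and did not pass (limma, unadjusted p = 0.000205, adjusted p = 0.337, and 0.00938 with a pseudocount of 200), in a comparison that called 1 probe set or 0.0122%. The dimmer Lpl probe set fell by 1.56 in IL-10-/- (0.0184) and by 1.55 in IL-6-/- (0.0173), and the brighter fell by 1.45 in IL-6-/- (0.0479). Gdpd3 fell by 0.85 ± 0.25 in IL-6-/- (0.0222). Each of these 4 calls was lost when a single array was left out. The dimmer Lpl call in IL-10-/- was lost without 3 of its 4 arrays (0.0781 to 0.173). The IL-6-/- calls were lost without any of theirs, at 0.0687 to 0.0964 for the dimmer and 0.0693 to 0.278 for the brighter Lpl probe set and 0.0608 to 0.152 for Gdpd3. Counts of calls per genotype do not show that the genotypes differ: in wild type the brighter Lpl probe set gave -1.40 (0.0582, and 0.0448 with a filter at 500) and Gdpd3 -0.66 ± 0.25 (0.0863, and 0.0402 with a pseudocount of 200), and in IL-10-/- the brighter Lpl probe set gave -1.27 (0.0975).

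Adding a cytokine to LPS moved none of the genes past the test. Added IL-10, averaged over the 3 genotypes, called 85 probe sets at 45 min (1.03%) and 314 at 180 min (3.82%), and added IL-6 at 45 min called 45 (0.547%). Of the 9 member probe sets, 0 were called in each, with limma adjusted p of 0.693 to 0.998 for IL-10 at 180 min and 1.0 at 45 min. Over all probe sets, 369, 906 and 319 had an unadjusted p under 0.05 in these 3 comparisons. With at most 3.82% of all probe sets called, a count of 0 among 9 does not set these genes apart. For Cd5l, as an example in IL-10-/- cells, the LPS arrays at 180 min read 5278.5 and 4703.5 without IL-10 and 5780.9 and 5542.6 with it, against 1472.5 and 1274.5, and 1888.2 and 1675.9, in wild type. Gdpd3 read 171.0 and 249.3 without and 173.0 and 321.3 with added IL-10 in IL-10-/- cells at the same time.

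**Figure D3:**
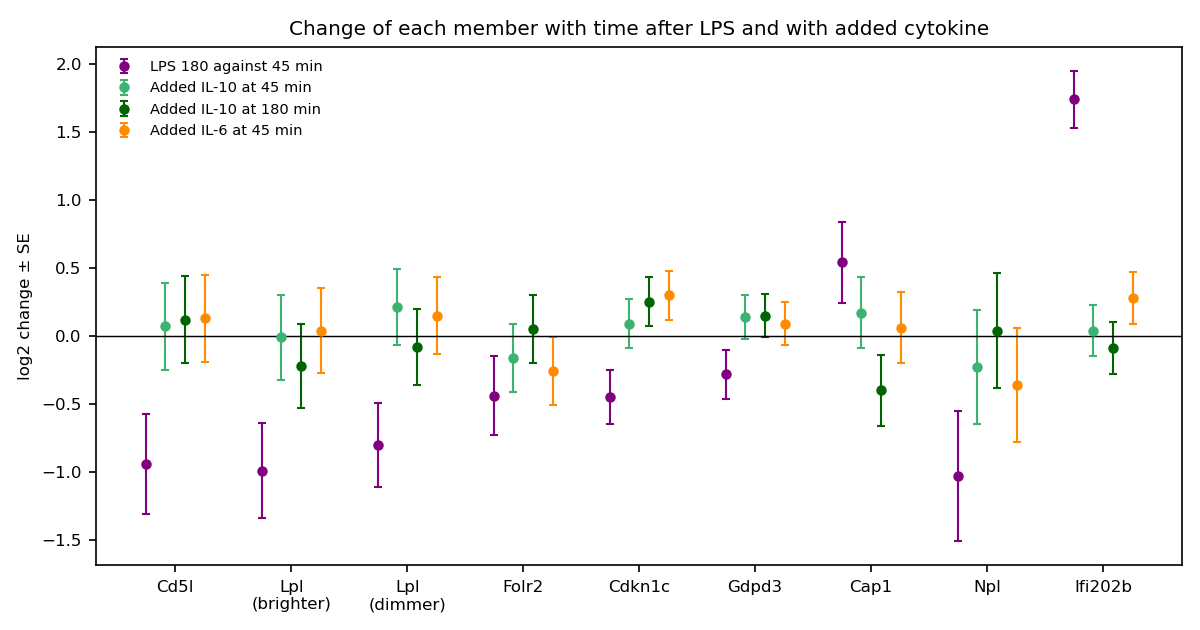
Log2 change ± SE of each member probe set with time after LPS (180 against 45 min, mean of wild type and IL-10-/-, 8 arrays) and with added IL-10 or IL-6 (mean of 3 genotypes). The bars are standard errors from the fit across all probe sets. The Ifi202b rise of 1.74 with time averages wild type, where the signal ratio was 14.2, and IL-10-/-, where it was 0.734. No member's change with an added cytokine passed the test, which few of all probe sets passed.

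Set against resting cells, wild type with LPS at 45 min called 1377 probe sets (16.7%) and at 180 min 2778 (33.8%), and 6 of the 9 member probe sets in each. The count at 45 min was 718 and 695 without either wild-type array. These wild-type arrays also took part in the choice of members. The members' counts and p-values against rest, here and in the next paragraph, are therefore not independent of that choice. The resting arrays name no genotype and had another named source of CSF-1, which cannot be told apart from LPS here. Of 13 tested stromal markers 11 were higher than at rest at both times, with medians of 2.03 and 2.04, and their part in the changes below was not tested. Gdpd3 was 2.13 ± 0.22 higher at 45 min and 1.30 ± 0.22 at 180 min (limma adjusted p = 1.25e-07 and 5.17e-05), and Cap1 2.03 ± 0.36 and 2.68 ± 0.36 (0.000346 and 2.96e-06). Ifi202b was 3.23 ± 0.26 and 6.95 ± 0.26 higher (1.97e-09 and 3.18e-16). Thus 3 of the 4 genes that were lower in IL-10-/- had low signal in resting cells too: Gdpd3 as above, Cap1 at 161.0, 366.4, 177.0 and 68.0, and Ifi202b at 14.5 or less. Npl read 19.2, 37.6, 21.2 and 461.2 at rest, with the last array apart from the others. Npl was 1.85 ± 0.59 higher at 45 min (0.0314), a call lost without any of the resting arrays except the fourth (0.0672 to 0.0765) and without either wild-type array (0.16 and 0.136). At 180 min it gave 0.97 (0.221), and passed without the fourth resting array (0.00407).

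The genes that were higher in IL-10-/- varied widely among the resting arrays. Cd5l read 2965.5, 273.9, 1285.8 and 630.0, the brighter Lpl probe set 3425.5, 1037.1, 8882.9 and 1925.1, and Folr2 1760.3, 3280.0, 7308.0 and 1713.5. For Lpl and Folr2 the resting arrays reach into both the wild-type and the IL-10-/- range. Cdkn1c, at 186.0, 174.7, 85.4 and 169.4, lay in or below the wild-type range. At 45 min Cd5l was 1.50 ± 0.45 higher than at rest (limma adjusted p = 0.0244) and Folr2 fell by 1.12 ± 0.35 (0.0294). Both of these calls depend on single arrays: Cd5l was lost without the second (0.0522) or the fourth (0.0548) resting array or either wild-type array (0.15 and 0.104), and Folr2 without the second (0.057) or the third (0.0529) resting array or either wild-type array (0.128 and 0.153). At 180 min the 2 Lpl probe sets fell by 1.37 ± 0.43 (brighter, 0.0146) and 1.37 ± 0.38 (dimmer, 0.00697), and Folr2 by 1.23 ± 0.35 (0.00807). Without the first wild-type array these 180 min calls became 0.105 and 0.0638 for Lpl, and without the second 0.0628 for the brighter Lpl probe set and 0.0971 for Folr2. Cd5l at 180 min gave 0.55 (0.38), and 0.0103 without the first resting array, and the dimmer Lpl probe set at 45 min passed without the second (0.0116).

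The pattern itself is uncommon on the array. A lasting offset was counted where, in each of the 5 arms, both IL-10-/- arrays lay on the same side of both wild-type arrays and the mean difference was at least 2-fold. By that count 17 of 8224 probe sets, 0.207%, had a lasting offset, 10 higher and 7 lower in IL-10-/-, and the 9 member probe sets are among them because they were chosen for it. With no minimum on the fold, 132 probe sets or 1.61% had one, 69 higher and 63 lower. The same count for IL-6-/- against wild type, whose LPS arms hold 1 array each, gave 9 probe sets (0.109%), 3 higher and 6 lower, with Gdpd3 and Cap1 as the 2 members, and 246 (2.99%) with no fold minimum, again with these 2 members. Of the 8 probe sets outside the members, 3 carry a single symbol, 4 several symbols and 1 none.

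Genes with a single symbol outside the 8 were Ctse, Erdr1 and H2-K1. The Ctse probe set, for the endosomal protease cathepsin E, was 2.38 higher in IL-10-/-, with 129.4 to 278.1 in wild type, 789.9 to 1575.7 in IL-10-/-, 23.3 to 124.7 in IL-6-/- and 1810.5 to 2677.4 at rest. The Erdr1 probe set was lower, at -2.33, and that of H2-K1, a class I histocompatibility gene, was lower in both knockouts, at -1.92 for IL-10-/- against -1.98 for IL-6-/-. Unlike Lpl, whose probe sets agree, these genes are split: the other 2 Ctse probe sets gave -0.53 and -0.34, the other Erdr1 probe set -0.55, and the other 2 of H2-K1 0.03 and 0.10, and none of them had a lasting offset.

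The Ifi200 family holds further probe sets with large offsets. Another probe set, listed under Ifi202b and a second symbol, followed Ifi202b, at -3.84, with 292.5 to 2813.3 in wild type, 2.1 to 35.1 in IL-10-/- and 334.0 to 1085.6 in IL-6-/-. A probe set listed under 4 symbols of this family went the other way, 3.77 higher in IL-10-/- cells and 2.92 higher without IL-6. It read 145.3 to 2218.8 in wild type, 3138.9 to 17588.2 in IL-10-/- and 1278.3 to 14618.1 in IL-6-/-, and cannot be given to a single gene. These genes are near-identical copies in part, so their probe sets may share transcripts. Ifi209, with a probe set of its own, was 1.36 ± 0.21 higher in IL-10-/- (limma adjusted p = 0.000135), with 6.7 to 69.9 in wild type, 110.1 to 469.2 in IL-10-/- and 5.4 to 65.0 in IL-6-/-. It was the 1 of 3 tested family members outside the 8 to be called, against 3.53% of all probe sets. In IL-6-/- 0 of 3 were called, against 3.72%. These counts hold only probe sets with 1 symbol, so the one listed under 4 symbols is not in them.

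Il10, Npl and Ifi202b lie on the same chromosome, so the count was also read along the gene order. Counting genes with a tested probe set, Npl is 52 genes from Il10, Ifi209 122 and Ifi202b 125. Of the 50 genes nearest Il10 on each side, 5 of 100 (5%) had a lasting offset of any size in IL-10-/-, against 9 of 249 (3.61%) on the rest of chromosome 1 and 91 of 5712 (1.59%) on all others. The IL-6-/- arrays gave 6 of 100 (6%), 16 of 249 (6.43%) and 185 of 5712 (3.24%) for the same genes. Around Il6 on chromosome 5, IL-6-/- gave 3 of 86 (3.49%), 8 of 274 (2.92%) and 197 of 5701 (3.46%). By calls (limma adjusted p under 0.05), the Il10 zones gave 5 of 100 (5%), 17 of 249 (6.83%) and 197 of 5712 (3.45%) in IL-10-/-. Chromosomes without Il10 differed too: a lasting offset of any size in IL-10-/- was held by 13 of 367 genes (3.54%) on chromosome 4 and by 0 of 144 on chromosome 18. The nearest genes with such an offset in IL-10-/- were Ctse at 6 genes from Il10, Serpinb2 at 16 (-0.99, and -1.59 in IL-6-/-), Pam at 20 (1.53, and -0.59 in IL-6-/-) and Csrp1 at 29 (0.37). The other 6 genes among the 8 lie on chromosomes without Il10. Whether a stretch of another strain around Il10 takes part in any of these offsets was not tested.

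**Figure D4:**
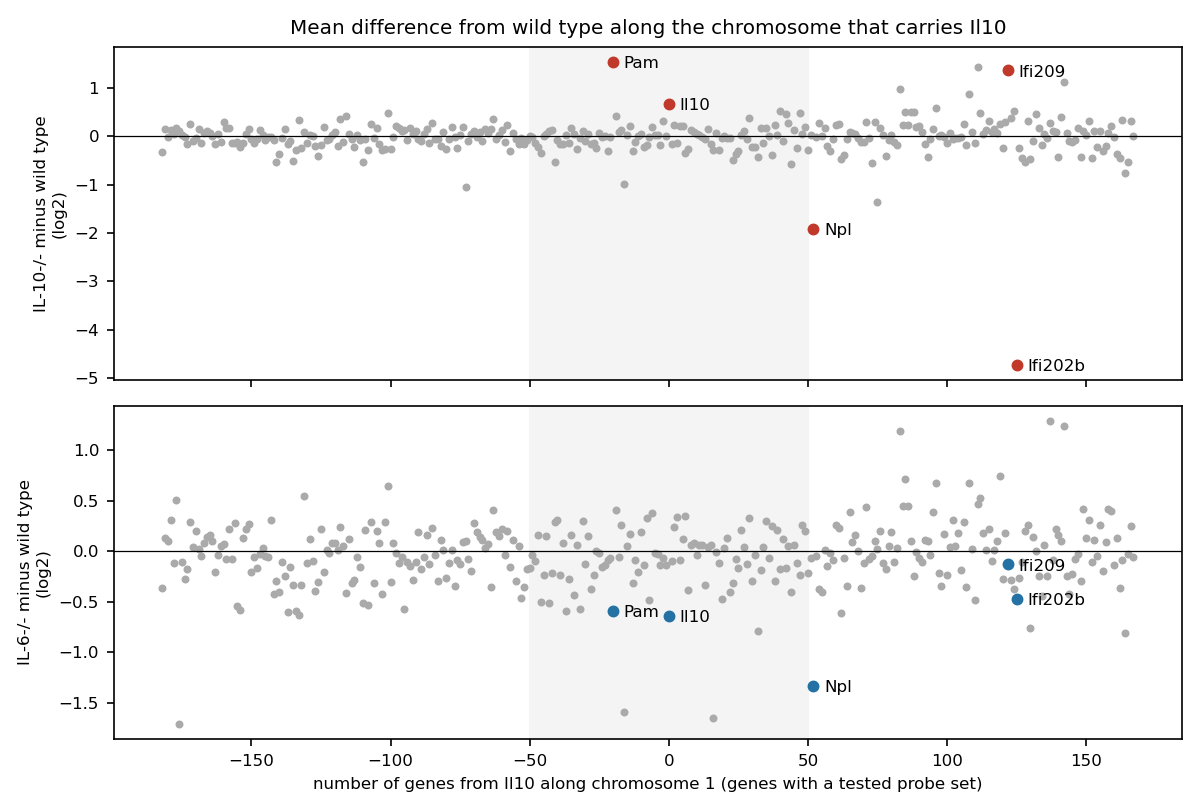
Mean log2 difference of IL-10-/- (top) and IL-6-/- (bottom) from wild type for each gene of chromosome 1 with a tested probe set, placed by the number of genes from Il10, with 1 probe set per gene, the one with the highest mean signal. The shaded band covers the 50 genes on each side of Il10. Npl and Ifi202b, at 52 and 125 genes from Il10, lie outside the band.

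The shape of the signal was compared over the 15 stimulated group means. These groups include the IL-10-/- and wild-type groups whose difference chose the genes, so the choice itself makes genes higher in IL-10-/- run together and opposite to the lower ones. The correlations are descriptions with no p. Cd5l, Lpl and Folr2 ran together (r = 0.94 for Cd5l with Folr2, and 0.97 between the Lpl probe sets), and Cd5l and Ifi202b ran opposite (r = -0.94). Cap1 and Npl gave 0.79, and Gdpd3 and Cap1, both lower in IL-10-/-, only 0.12. Over all named probe sets, those most like Cd5l were Lpl (0.958) and Dkk3 (0.941), a secreted Dickkopf-family protein, which was also the closest to Lpl on both probe sets (0.963 and 0.951). Ctse (0.963) was closest to Folr2, Folr2 (0.914) to Cdkn1c, Klk1b11 (0.911) and Ramp1 (0.889) to Gdpd3, Ssr1 (0.922) and H2-K1 (0.903) to Cap1, Gstm1 (0.888) to Npl and Erdr1 (0.967) to Ifi202b.

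Genes of the pathways around the 8 were read against 3.53% of all probe sets called in IL-10-/- and 3.72% in IL-6-/-. Of 7 tested tissue-macrophage genes other than the 8, 0 were higher and 2 lower in IL-10-/-, Gas6 by -0.55 ± 0.12 and Stab1 by -0.54 ± 0.11 (limma adjusted p = 0.00496 and 0.00249), with a median of -0.31. Among 13 genes linked to the liver X receptor, 1 was higher, the receptor gene Nr1h3 at 0.75 ± 0.14 (0.00171), with a median of -0.09. Nr1h3 was also higher in IL-6-/- at 0.58 ± 0.15 (0.0324), and the apolipoprotein gene Apoc2 was lower there at -1.17 ± 0.12 (9.81e-07). Of 15 genes of lipase action and fatty acid uptake, the setting of Lpl, 0 were called in either knockout, with medians of 0.05 and -0.02. Of 8 folate genes, 1 was higher in IL-10-/- (Ggh, 0.58 ± 0.15, 0.0272) and 0 in IL-6-/-. Medians over all probe sets were -0.017 and -0.014 in the same comparisons.

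Around Cap1, 1 of 19 actin turnover genes was higher and 0 were lower in IL-10-/-, namely Capzb, a subunit of the protein that caps actin filaments. It was higher in both knockouts, by 0.86 ± 0.10 without IL-10 and by 0.91 ± 0.10 without IL-6 (limma adjusted p = 1.72e-06 and 3.63e-06). Of 7 other cyclin-dependent kinase inhibitors, 1 was lower in IL-10-/-, Cdkn2d at -0.52 ± 0.13 (0.0199), and 0 were called in IL-6-/-. None of 11 imprinted neighbours of Cdkn1c was called in IL-10-/-, with a median of -0.02, while in IL-6-/- 1 was higher (Cd81, 0.42 ± 0.12, 0.0488) and 2 lower (Osbpl5, -1.20 ± 0.25, 0.00521, and Nap1l4, -0.64 ± 0.15, 0.0168). None of 10 sialic acid genes was called in either knockout. The single other tested gene of the Gdpd3 family was called in neither.

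Markers of other cells moved with genotype in part. The summed signal of 16 stromal markers was 11617 to 14246 in wild type, 13719 to 16142 in IL-10-/-, 9123 to 10146 in IL-6-/- and 1593 to 4368 at rest, with Lum, Pdgfrb and Thy1 under 200 on all arrays. Of 13 tested, 2 were higher in IL-10-/-, Postn at 1.23 ± 0.20 and Tagln at 0.70 ± 0.20 (limma adjusted p = 0.000318 and 0.0484), and 5 were lower in IL-6-/-. The order of these sums across the 3 genotypes is that of the medians of Cd5l, the brighter Lpl probe set and Folr2. The dimmer Lpl probe set and Cdkn1c had higher medians in IL-6-/- (475 and 229) than in wild type (267 and 189). At rest, where the sums were lowest, the median was 958 for Cd5l, against 2691 in wild type. The brighter Lpl probe set and Folr2 had medians of 2675 and 2520 at rest, against 2223 and 1284 in wild type. The part of the stromal markers in these offsets was not tested. Of the 18 macrophage markers, 5 were higher in IL-10-/-, among them C1qa at 0.87 ± 0.10 and C1qb at 0.83 ± 0.07 (1.72e-06 and 2.44e-08), and 4 were higher in IL-6-/-: Msr1 at 0.85 ± 0.13, C1qb at 0.76 ± 0.08, C1qc at 0.55 ± 0.13 and C1qa at 0.39 ± 0.11 (0.000286, 9.26e-07, 0.0169 and 0.0406). The summed neutrophil markers ran from 2456 to 8351 in wild type, 1874 to 7194 in IL-10-/- and 1994 to 11785 in IL-6-/-, with Mpo, Ctsg, Cxcr2 and Ly6g under 200 on every array. The lymphocyte sums were 1695 to 3441, 1730 to 2614 and 1890 to 2992, with Cd3e, Cd3d, Cd3g, Cd2, Cd8a and Gzma under 200. The dendritic cell markers summed to 1071 to 1977, 1220 to 2350 and 1186 to 2512, with Zbtb46 and Ly75 under 200. Single markers of these lists were called although the sums overlapped. The neutrophil marker Lcn2 (-0.74 ± 0.18) and the lymphocyte marker Ighm (-0.68 ± 0.14) were lower in IL-10-/- (limma adjusted p = 0.0159 and 0.00379). The dendritic cell marker Itgax was higher in IL-6-/-, by 1.30 ± 0.13 (limma adjusted p = 9.81e-07).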

How the data were processed

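RNA of 34 samples was measured on 1 single-colour mouse array each, with 12488 probe sets. The deposited values are MAS5 signal intensity on a linear scale, MAS5 per the submitters' processing notes, with its version not given in the sources used here. The arrays' equal trimmed means show that the deposited intensity values were scaled to a common level. MAS5 subtracts mismatch probes and gives no depth, so the number of arrays limits the precision. Groups came from the sample titles.

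Signals were taken as log2(signal + 50), with no further normalization. The 66 control probe sets were left out, and 8224 with a signal of at least 200 on at least 2 arrays were tested. Symbols came from the platform table: 10855 probe sets have 1 symbol, 396 several and 1237 are not listed; 10839 symbols were found in the RefSeq gene table and 0 changed. A fit of 16 group means to the 32 grouped arrays (limma 3.58.1, R 4.3.3, intensity trend, 16 residual and 7.58 prior degrees of freedom) gave each contrast, and p-values were adjusted by the Benjamini-Hochberg method over all tested probe sets. The fit was tested on simulated data. No array pair held identical values.

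The members and lists were chosen with earlier results of these data known. Genes named outside the 8 are Il10 and Il6, the 2 genes closest to each member by correlation, single-symbol genes with a lasting offset, the 4 nearest Il10 with such an offset of any size, and up to 4 called genes of each list. Alternatives were pseudocounts of 10 and 200, the low-signal filter, quantile normalization, no trend, a replicate block and leaving out each array. The time step in LPS with IL-10, and the IL-6-/- count of lasting offsets, were added after the data were seen.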

Additional observations from a re-analysis of the deposited data

Results flagged for a closer look

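In resting cells the third array read 85.4 for Cdkn1c, below 186.0, 174.7 and 169.4 on the others, a gap large for the range of 4 arrays. The fourth resting array read 461 for Npl, far above 19.2, 37.6 and 21.2. Chance marks about 1 in 20 groups of this kind, and neither was tested further. For Ifi202b the offset of IL-10-/- from wild type was -2.62, -3.90 and -4.03 in the arms at 45 min and -6.58 and -6.51 in those at 180 min. The moderated F test of the offset by arm, over the 5 arms, returned 3.4e-06 (limma adjusted p). The choice of genes used these same offsets, so that value cannot test them and no conclusion is drawn from it. Wild-type arrays read 459.5 to 1168.5 at 45 min and 5686.1 to 7975.6 at 180 min, and IL-10-/- arrays 2.8 to 44.4 and 7.5 to 54.2. With IL-10-/- signal near the floor at both times, the larger offset at 180 min mirrors the wild-type rise.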

How the results depend on the processing

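Of 2272 alternative values for the members, 2190 counted as unchanged, 53 lost a call, 18 gained one, 11 moved by more than their spread and 0 called values reversed. Unchanged means the same side of the threshold or, for the untested IL-10-/- difference from wild type, a shift within the spread. Uncalled values could change sign: the brighter Lpl probe set in wild type at 45 min against rest went from -0.17 to 0.38 without the third resting array. Counts over all probe sets moved most with the replicate number as a block (replicate block): 603 for IL-10-/- against wild type, 781 for IL-6-/- against wild type, 816 between the knockouts, 138 and 509 for added IL-10 at 45 and 180 min, 70 for added IL-6, 175 for the offset by arm and 2 for the difference of time steps between IL-6-/- and wild type. With the block, Cd5l (0.0391), the dimmer Lpl probe set (0.0138) and Npl (0.0171) passed for LPS at 180 against 45 min, the brighter Lpl probe set (0.00109 in wild type, 0.00292 in IL-10-/-) and Gdpd3 in wild type (0.0126) for the time step in LPS with IL-10, and Npl for LPS at 180 min against resting cells (0.00806), where the dimmer Lpl probe set was lost (0.0657). Numbers 3 and 4 occur only among the resting arrays. The block therefore takes those 2 arrays out of the comparisons with rest and out of the shared estimate of the spread. Changes under the block cannot be put down to a pairing of arrays alone. The labels do not say what a shared number means. Same-numbered arrays deviated together in all 23 pairs of groups (correlation 0.0204 to 0.441) but beyond 0.1 in only 13, so a pairing is a hint from the data and was not used. The count by arm was 94 with a pseudocount of 200. The difference of time steps called 0 with a pseudocount of 10, 3 with 200, 2 without the trend and 2 without the fourth resting array. Lasting offsets numbered 132 with no fold minimum, and 22, 13, 17, 15 and 19 with a pseudocount of 10 or 200, no filter, a stricter filter of 500 or quantile normalization. Leaving out 1 array gave 695 to 1482 for wild type with LPS at 45 min against resting cells, 28 to 68 for the offset by arm and 16 to 20 lasting offsets. For the time step in LPS with IL-10 it gave 760 to 965 in wild type, 636 to 714 in IL-10-/-, 784 to 1038 in IL-6-/- and 0 to 2 for their difference. Pseudocounts of 200 moved the IL-10-/- difference of Gdpd3 to -1.73, Cdkn1c to 0.98 and Npl to -1.09. Groups of 2 arrays, and low signal for Npl and for Ifi202b in IL-10-/-, limit what can be told.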

Other observations

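An array of LPS at 45 min whose labels name no genotype read 2770.0 for Cd5l, 2205.6 and 436.1 for the Lpl probe sets, 793.7 for Folr2, 237.4 for Cdkn1c, 4483.1 for Gdpd3, 256.1 for Cap1, 180.7 for Npl and 730.2 for Ifi202b. An IL-6-/- array of LPS whose labels give conflicting times read 1704.2 for Cd5l, 970.2 and 265.7 for Lpl, 1149.9 for Folr2, 221.2 for Cdkn1c, 2108.1 for Gdpd3, 190.4 for Cap1, 30.4 for Npl and 2971.0 for Ifi202b. Neither entered a comparison.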
